A study of Danio rerio with 12 samples.

Results

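Transcripts of 24 histone genes were followed in poly-A RNA of zebrafish embryos with and without smchd1. The members were all gene identifiers whose symbol began with a histone name (hist, h1f, h1m, h1-, h2a, h2b, h3f, h3- or h4, in any case), and they made up 24 of the 31462 identifiers in the tables, of which 25752 (81.9%) had a symbol. By symbol, 5 encoded linker histones, 10 encoded variant histones and 9 encoded core histones. No H4 gene was among them, and the only member whose symbol names H2B was the variant H2BK1.

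Poly-A RNA was sequenced from 4 groups of 3 libraries each. These were maternal-zygotic smchd1 null embryos (MZ) of the sphere stage, wildtype embryos (wt) of the sphere stage, and MZ and wt embryos of 4 to 8 cells. MZ embryos were lof1/lof1, an out-of-frame CRISPR/Cas9 allele in the GHKL ATPase domain, and lacked both the maternal and the zygotic supply of smchd1. MZ and wt embryos thus came from different parents, and smchd1 genotype and parental line cannot be told apart. The paper names AB as the strain of the embryos injected to make the mutants. Each library was made from pooled embryos, and the MZ groups came from 1 mutant allele. At the 4- to 8-cell stage the embryo lives on maternal RNA, and by the sphere stage its own genome is transcribed.

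Histones package DNA into nucleosomes. Core histones (H2A, H2B, H3 and H4) form the spool, linker histones (H1) bind the DNA where it enters and leaves, and variants such as H2A.X, H2A.Z and H3.3 replace core histones at particular places or times. In animals most core histone mRNAs are made during DNA replication and end in a stem-loop in place of a poly-A tail, whereas variant mRNAs are usually polyadenylated. Eggs store histone mRNA and protein, because the first cell cycles are fast and copy much DNA. In poly-A libraries the amount of an mRNA and the share of its copies that carry a tail cannot be told apart, so each value below is a level of poly-A captured RNA. In these bulk samples fewer cells with a transcript and less transcript per cell cannot be told apart either.

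Total expected counts per library ran between 7829742, in MZ sphere replicate 1, and 23681822. The gene zgc:158463 codes for ribosomal RNA, was left out of the tests and took 1.56 ± 2.09% of counts in MZ sphere and 0.0127 ± 0.0083% in wt sphere libraries (SD, n = 3 each), and 3.98% in MZ sphere replicate 1. The smchd1 transcript, the check of the labels, was lower in MZ than in wt embryos at both stages, with a log2 fold change of -5.95 at the sphere stage and -5.17 at the 4- to 8-cell stage. Of 18 identifiers for zygotic blastula markers, 18 were higher at the sphere than at the 4- to 8-cell stage in either genotype. Of all genes tested, 20.0% were higher in MZ and 24.7% in wt. Between MZ and wt at the sphere stage edgeR called 0 of the 18, against 7.78% of all genes. At an unadjusted p under 0.05, 0 of these markers were higher and 3 lower, and DESeq2 called 1 lower. Whether called or not, 4 of the 18 had a positive and 14 a negative log2 fold change (median -0.32). Of the 10 maternal egg markers, 8 were positive and 2 negative (median 0.13). Over all genes tested 8132 were positive and 8182 negative. Whether MZ and wt sphere embryos differed in developmental time was not tested. Their summed level was 1290 to 2669 CPM in MZ and 1678 to 2694 CPM in wt sphere libraries, and 17.0 to 18.97 CPM in MZ and 12.7 to 13.1 CPM in wt 4- to 8-cell libraries. The liver marker fabp10a and the globin gene hbae1.1 had 0 counts in all 12 libraries after rounding, while other markers of their lists had some. The globin gene hbaa1 had 4 to 8 counts per group. The 8 liver markers summed to 1.18 to 2.30 CPM in MZ and 0.993 to 1.44 CPM in wt sphere libraries. In 4- to 8-cell libraries they summed to 0.799 to 0.949 CPM in MZ and 0.295 to 0.369 CPM in wt. Testis markers reached 82.8 CPM in 1 wt sphere library, mostly from SYCP1. The 6 blood markers found, of 8 listed, summed to 5.51 to 13.0 CPM in MZ and 5.64 to 19.1 CPM in wt sphere libraries and to 2.06 to 2.34 CPM in MZ and 0.983 to 1.33 CPM in wt 4- to 8-cell libraries, and their part in the stage results was not tested. Of the maternal egg markers 1 of 10 was called between genotypes at the sphere stage (gdf3, lower in MZ by edgeR, with 4 higher and 1 lower at an unadjusted p under 0.05, 3 higher and 1 lower by DESeq2) and 0 of 10 earlier (2 higher at an unadjusted p under 0.05, 1 by DESeq2), and of the zygotic markers 1 of 7 tested earlier (mixl1, higher in MZ). No marker of blood, ovarian follicle, liver or testis was called between genotypes by edgeR or DESeq2, with at most 2 of each list above the filter and 1 blood marker at an unadjusted p under 0.05. CPM here stands for counts scaled to library size with TMM factors, and it serves to compare 1 gene between groups. TPM, which also divides by gene length, serves to compare genes with each other.

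Histone transcripts were abundant in every group. Summed over the 24 members they held 2.18% of all TPM in MZ sphere, 2.22% in wt sphere, 1.41% in MZ 4- to 8-cell and 1.44% in wt 4- to 8-cell embryos. The members were short, with a median length of 692 bases against 1760 for all genes. Read sharing with near-identical genes showed as a fractional expected count in 3 of the 24 members (hist1h2a8 in 2 libraries, hist1h2a2 in 1 and h2ax2 in 6), against 9.09% of all genes, with a tolerance of 0.005. Whole-number counts do not show that no read was shared, and values of the closely related hist1h2a and h2ax genes are uncertain to that extent.

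Over all 12 libraries the highest members per length were the core gene hist2h3c (mean 2855 TPM), the H2A.X genes h2ax2 (1973 TPM) and h2ax (1831 TPM), the core gene hist1h2a8 (1342 TPM) and the H3.3 gene h3f3a (1322 TPM). The linker gene H1-10 was among the lowest (0.976 TPM). The span within each type was wide, since the core gene hist2h2l (11.3 TPM) lay far below the other 8 core genes, which had means of 299 to 2855 TPM. By reference annotation 19 of the 24 symbols could be placed. Of these, 5 lay on chromosome 7 (hist2h3ca1, hist1h2a7, hist1h2a11, hist1h2a2 and h2ax2) and 3 on chromosome 25 (hist2h3c, hist1h2a3 and hist1h2a4). Another 2, hist2h2l and h2ax1, lay next to each other among the protein-coding genes of chromosome 10.

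**Figure D1:**
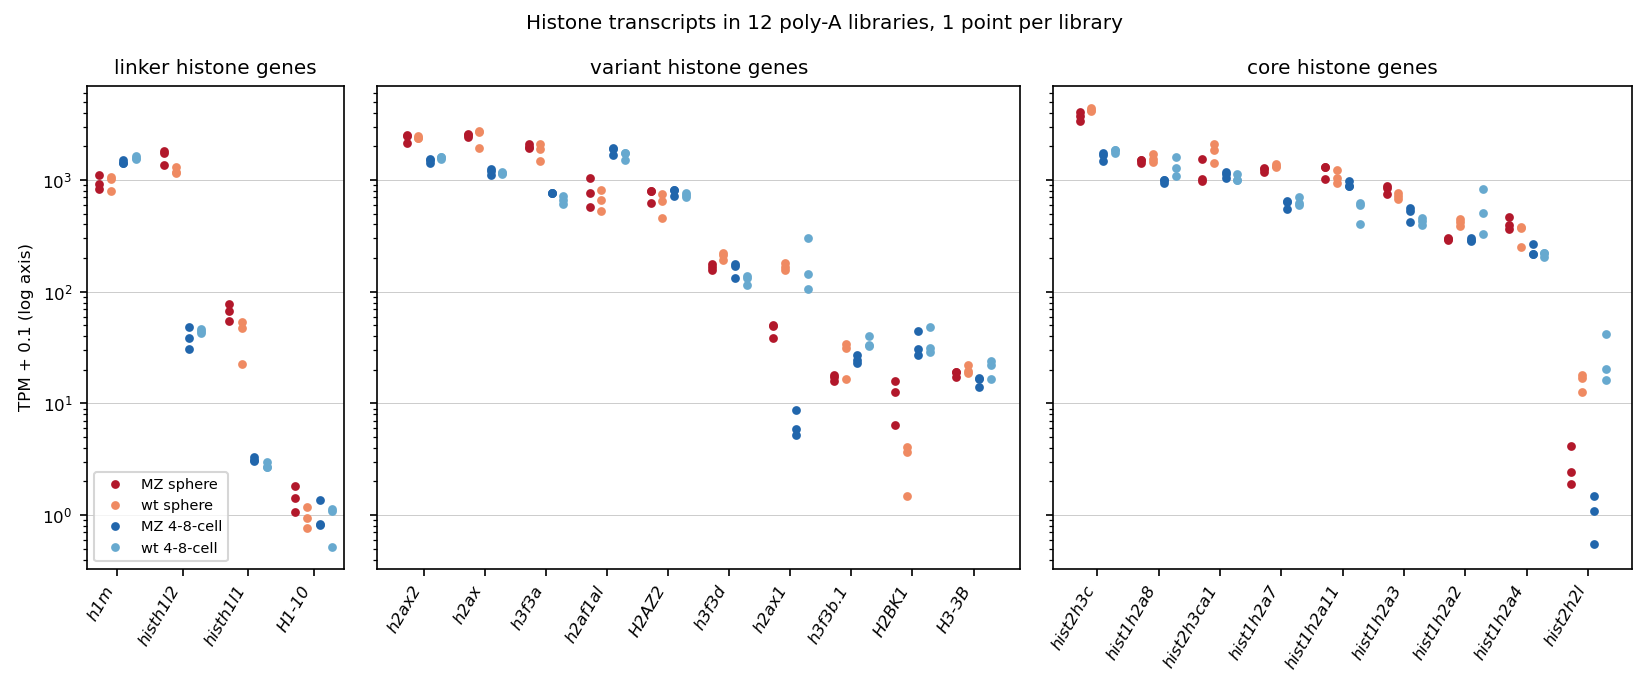
TPM + 0.1 (log axis) of 23 histone genes in 12 poly-A libraries, with 1 point per library, for MZ sphere, wt sphere, MZ 4- to 8-cell and wt 4- to 8-cell embryos. Most genes sit within a narrow band in each stage, whereas h2ax1 and hist2h2l are far lower in MZ than in wt embryos, and histh1l2 and histh1l1 are far higher at the sphere stage.

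The first question was which histone transcripts differ between MZ and wt embryos. A gene was called at an adjusted p under 0.05 in the edgeR quasi-likelihood test, adjusted over all genes. In MZ sphere embryos 0 of the 24 members tested were higher and 3 were lower than in wt, namely h2ax1, hist2h2l and hist1h2a2 (1 higher and 8 lower at an unadjusted p under 0.05, 1 higher and 6 lower by DESeq2). In MZ 4- to 8-cell embryos 0 of the 23 tested were higher and 2 were lower, again h2ax1 and hist2h2l (4 higher and 5 lower unadjusted, 2 higher and 3 lower by DESeq2). Over all genes tested, 7.78% were called at the sphere stage (3.71% higher and 4.07% lower) and 3.02% at the 4- to 8-cell stage (1.33% higher and 1.69% lower). These shares are of edgeR calls, and none was computed over all genes for the unadjusted or DESeq2 counts. With so few members the counts were not tested against the background and are read as no more than the 3 genes themselves.

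h2ax1 encodes an H2A.X, the variant whose phosphorylated tail marks DNA double-strand breaks. It had 31.4, 31.9 and 22.4 CPM in MZ sphere embryos, against 117, 128 and 97.4 CPM in wt sphere embryos. In the earlier embryos it had 2.78, 2.29 and 3.87 CPM in MZ, against 141, 46.2 and 62.3 CPM in wt. The groups did not overlap at either stage, and the MZ 4- to 8-cell libraries were the lowest of all. The log2 fold change was -2.01 (SE 0.18, adjusted p = 0.00338, edgeR quasi-likelihood) at the sphere stage, a level 4.04-fold lower, and -4.81 (SE 0.50, adjusted p = 0.00944) at the 4- to 8-cell stage, 28.0-fold lower. Both calls held in all 15 alternatives run, with log2 fold changes of -2.12 to -1.84 and of -5.09 to -4.20.

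The other H2A.X genes carried most H2A.X transcript in every group. h2ax1 made up 0.926 ± 0.0789% of summed H2A.X TPM in MZ sphere and 3.32 ± 0.308% in wt sphere embryos (SD, n = 3 each), and 0.241 ± 0.0612% in MZ and 6.22 ± 3.42% in wt 4- to 8-cell embryos. h2ax had 965 ± 83.5 CPM in MZ and 1052 ± 181 CPM in wt sphere embryos (adjusted p = 0.559, edgeR), and 339 ± 7.96 CPM in MZ and 319 ± 6.54 CPM in wt 4- to 8-cell embryos (adjusted p = 0.370). h2ax2 had 633 ± 78.4 CPM in MZ and 736 ± 52.4 CPM in wt sphere embryos (adjusted p = 0.241), and 312 ± 22.1 CPM in MZ and 325 ± 5.96 CPM in wt 4- to 8-cell embryos (adjusted p = 0.594). Neither gene passed the test at either stage. Summed over h2ax1, h2ax and h2ax2, transcript was 1626 ± 167 CPM in MZ and 1902 ± 213 CPM in wt sphere embryos, and 654 ± 21.5 CPM in MZ and 728 ± 62.0 CPM in wt 4- to 8-cell embryos. On TPM the sums were 4959 ± 288 in MZ and 5039 ± 400 in wt sphere embryos. At 4 to 8 cells they were 2689 ± 75.7 in MZ and 2930 ± 45.0 in wt. The sums and shares leave out hist1h2a11, which has the RefSeq synonym h2ax3 and counts as core by its symbol. At 4 to 8 cells hist1h2a11 had 204 ± 13.9 CPM in MZ and 126 ± 24.5 CPM in wt.

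hist2h2l, whose symbol does not say whether it encodes H2A or H2B, moved like h2ax1 at a lower level. It had 2.30, 1.01 and 1.18 CPM in MZ sphere embryos, against 10.5, 8.02 and 9.81 CPM in wt sphere embryos. In the earlier embryos it had 0.192, 0.391 and 0.553 CPM in MZ, from 20 counts in all, against 17.3, 6.23 and 7.86 CPM in wt, from 714 counts. Again no MZ library reached the lowest wt library of its stage. The log2 fold change was -2.72 (SE 0.38, adjusted p = 0.0104, edgeR) at the sphere stage, 6.58-fold lower, and -4.79 (SE 0.58, adjusted p = 0.0151) at the 4- to 8-cell stage, 27.7-fold lower. The calls held without any 1 wt library but not without some of the MZ libraries. At the sphere stage the adjusted p was 0.0673 without MZ replicate 2 (-2.47) and 0.0603 without MZ replicate 3 (-2.58), and at the 4- to 8-cell stage it was 0.0506 without MZ replicate 1 (-4.46), 0.0535 without MZ replicate 2 (-4.83) and 0.0678 with the replicate number as a block (-4.68).

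hist2h2l and h2ax1 are neighbours among the protein-coding genes of chromosome 10 in RefSeq annotation (assembly GRCz12tu) and do not overlap there. The next protein-coding gene beyond h2ax1 is zpr1, which encodes a zinc finger protein and was looked at after these values were seen. It had 21.7, 17.4 and 19.9 CPM in MZ sphere embryos, against 63.9, 58.8 and 52.5 CPM in wt sphere embryos, and 50.9, 51.9 and 47.7 CPM in MZ against 147, 83.0 and 92.6 CPM in wt 4- to 8-cell embryos. It was lower in MZ at both stages, with log2 fold changes of -1.59 (SE 0.15, adjusted p = 0.00363, edgeR) at the sphere stage and -1.103 (SE 0.21, adjusted p = 0.0443) at the 4- to 8-cell stage. All 3 genes were highest in replicate 1 of the wt 4- to 8-cell libraries. Of the 5 genes on each side of the pair, 7 were matched and 5 tested. Of these, 2 were lower at the sphere stage (zpr1 and vps11) and 1 was lower at the 4- to 8-cell stage (zpr1), and 0 were higher at either by edgeR. At an unadjusted p under 0.05 they were 1 higher and 2 lower at the sphere and 0 higher and 2 lower at the 4- to 8-cell stage, and DESeq2 called ift46 higher at the sphere stage. Further out on the hist2h2l side, DESeq2 called crebzf higher and tmem126a lower at the 4- to 8-cell stage. In edgeR neither passed there (1.86 and -1.09, adjusted p = 0.0547 and 0.0956). Over all genes edgeR called 7.78% at the sphere and 3.02% at the 4- to 8-cell stage.

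**Figure D2:**
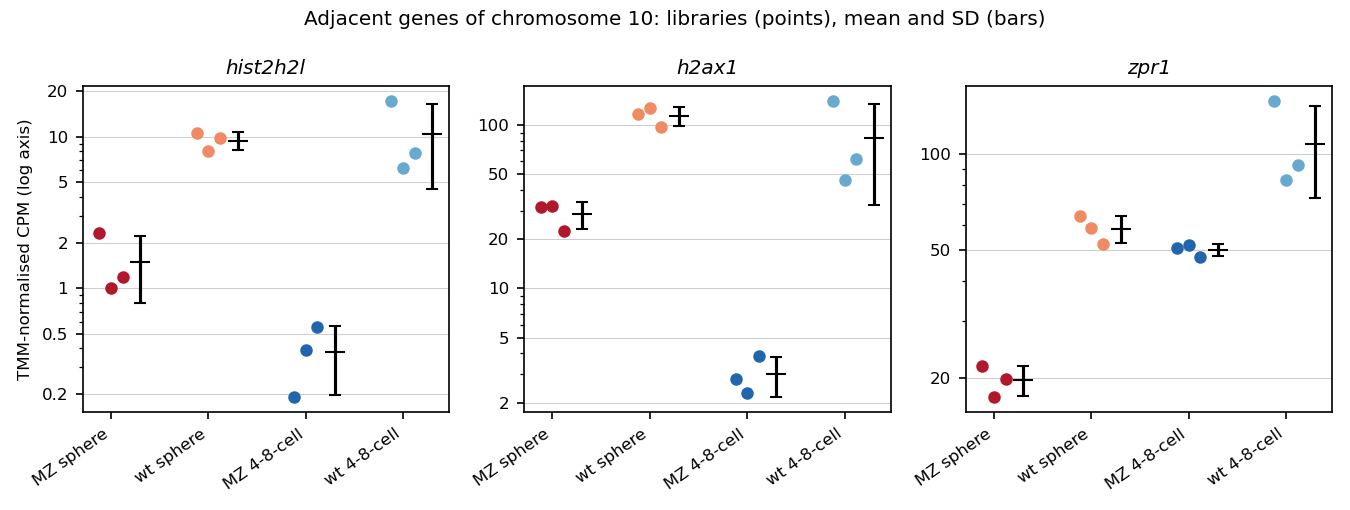
TMM-normalised CPM (log axis, each panel with its own range) of hist2h2l, h2ax1 and their neighbour zpr1 in MZ sphere, wt sphere, MZ 4- to 8-cell and wt 4- to 8-cell embryos, with 1 point per library and the mean and SD beside them (n = 3). The MZ points lie below the wt points of the same stage in each panel, and for both histone genes the MZ 4- to 8-cell points are the lowest.

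hist1h2a2, a core H2A gene of chromosome 7, was the third member called. It had 111, 114 and 98.9 CPM in MZ sphere embryos, against 189, 178 and 143 CPM in wt sphere embryos. The groups did not overlap, and the log2 fold change was -0.66 (SE 0.13, adjusted p = 0.0278, edgeR). Without wt replicate 1 the log2 fold change was -0.58 (adjusted p = 0.0724), and without MZ replicate 1, 2 or 3 it was -0.69, -0.70 or -0.61 (adjusted p = 0.0502, 0.117 and 0.126). In the fit to all 12 libraries the call was also lost (-0.65, adjusted p = 0.0900). Earlier, at 4 to 8 cells, it had 79.5, 76.1 and 80.5 CPM in MZ, against 140, 84.1 and 210 CPM in wt. No library overlapped there either, but the wt libraries were spread widely and the difference did not pass in edgeR (-0.88, SE 0.29, adjusted p = 0.146), while DESeq2 called it lower (adjusted p = 0.0173).

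The other 7 core genes did not pass between genotypes in edgeR. hist1h2a11, a core H2A gene by its symbol with the synonym h2ax3 in RefSeq, came closest at the 4- to 8-cell stage, with 207, 189 and 216 CPM in MZ against 144, 136 and 98.1 CPM in wt (log2 fold change 0.69, SE 0.14, adjusted p = 0.0545, edgeR), and was called higher by DESeq2 (adjusted p = 2.30e-04). At the sphere stage it had 401, 397 and 309 CPM in MZ and 399, 430 and 330 CPM in wt, with overlapping groups (-0.08, SE 0.14). The H3 gene hist2h3c had 1084, 1167 and 887 CPM in MZ and 1460, 1368 and 1168 CPM in wt sphere embryos, where the highest MZ library stayed just below the lowest wt library (-0.36, SE 0.13, adjusted p = 0.128). The H3 gene hist2h3ca1 had 412, 613 and 353 CPM in MZ and 843, 950 and 561 CPM in wt sphere embryos, and the groups overlapped (-0.78, SE 0.25, adjusted p = 0.0884, and 0.0149 by DESeq2). Its 4- to 8-cell levels were 320 ± 11.7 CPM in MZ and 291 ± 17.6 CPM in wt (0.13, SE 0.06). The remaining 4, hist1h2a3, hist1h2a4, hist1h2a7 and hist1h2a8, had log2 fold changes of -0.27 to 0.13 at the sphere stage and of -0.39 to 0.26 at the 4- to 8-cell stage.

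Core transcript summed over 9 genes was 3381, 3631 and 2761 CPM in MZ sphere embryos, against 4427, 4400 and 3490 CPM in wt sphere embryos. The sums overlapped, since MZ replicate 2 lay above wt replicate 3, and the ratio of means was 0.794. At the 4- to 8-cell stage the sums were 1479 ± 51.1 CPM in MZ and 1505 ± 79.0 CPM in wt, a ratio of 0.983. By chromosome, the 5 members on chromosome 7 summed to 2086 ± 301 CPM in MZ and 2693 ± 352 CPM in wt sphere embryos, and the 3 on chromosome 25 to 1462 ± 196 CPM in MZ and 1733 ± 183 CPM in wt. The median log2 fold change of the 9 core genes was -0.27 at the sphere stage and -0.03 at the 4- to 8-cell stage, against 0.00 for all genes tested at either stage. The zygotic blastula markers had a median of -0.32 at the sphere stage. The part of developmental time in the core value was not tested.

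Of the 10 variant genes, h2ax1 alone passed between genotypes in edgeR. The H3.3 genes encode the H3 that is placed in chromatin outside replication. h3f3d had 103, 114 and 98.8 CPM in MZ sphere embryos, against 160, 157 and 122 CPM in wt sphere embryos, and 65.6, 81.3 and 78.9 CPM in MZ against 55.0, 61.6 and 59.1 CPM in wt 4- to 8-cell embryos. Its groups did not overlap at either stage, with the MZ libraries below wt at the sphere stage (log2 fold change -0.48, SE 0.13, adjusted p = 0.0638, edgeR) and above wt at the 4- to 8-cell stage (0.36, SE 0.11, adjusted p = 0.117), and neither difference passed in edgeR. DESeq2 called both, with adjusted p-values of 0.0166 and 0.0420. h3f3a, the main H3.3 gene, had 943 ± 85.8 CPM in MZ and 946 ± 170 CPM in wt sphere embryos (-0.02, SE 0.14), and 263 ± 10.3 CPM in MZ and 223 ± 18.6 CPM in wt 4- to 8-cell embryos (0.23, SE 0.07, adjusted p = 0.128). h3f3b.1 had 14.2, 12.5 and 12.3 CPM in MZ and 14.46, 27.5 and 26.3 CPM in wt sphere embryos (-0.82, SE 0.27, adjusted p = 0.0957, and 0.0348 by DESeq2), and 16.1, 12.6 and 13.5 CPM in MZ against 23.2, 18.1 and 17.5 CPM in wt 4- to 8-cell embryos (-0.49, SE 0.18, adjusted p = 0.175).

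The H2B variant gene H2BK1 had the largest positive value of any member between genotypes. It had 2.30, 4.59 and 5.20 CPM in MZ sphere embryos, from 156 counts in all, against 0.564, 1.45 and 1.43 CPM in wt sphere embryos, from 54 counts. The groups did not overlap, and the log2 fold change of 1.81 (SE 0.49) did not pass in edgeR (adjusted p = 0.0612) and was called higher by DESeq2 (adjusted p = 0.0179). In the earlier embryos it had 12.2, 6.92 and 7.87 CPM in MZ and 7.70, 11.98 and 7.66 CPM in wt, with no difference in means beyond the spread (-0.03, SE 0.30). The other variant genes, h2af1al, H2AZ2 (an H2A.Z, a variant found at promoters) and H3-3B, had values of -0.27 to 0.10 at the sphere stage and of -0.35 to 0.16 at the 4- to 8-cell stage. Summed variant transcript was 3379 ± 224 CPM in MZ and 3666 ± 413 CPM in wt sphere embryos (ratio 0.922), and 1798 ± 64.6 CPM in MZ and 1751 ± 103 CPM in wt 4- to 8-cell embryos (ratio 1.03). On TPM the order at the sphere stage was reversed, with 8722 ± 226 in MZ and 8419 ± 834 in wt. The median log2 fold change of all genes tested also moved on that scale, to 0.13 on log2(TPM + 1). The median log2 fold change of the variant genes was -0.18 at the sphere stage and 0.03 at the 4- to 8-cell stage.

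No linker gene passed between genotypes at either stage, with 0 at an unadjusted p under 0.05 in edgeR and 0 called by DESeq2. h1m, the maternal linker histone gene of the zebrafish egg, had 837, 917 and 996 CPM in MZ sphere embryos, against 1135, 902 and 1054 CPM in wt sphere embryos (log2 fold change -0.18, SE 0.12, adjusted p = 0.357, edgeR). In the earlier embryos it had 1047 ± 81.5 CPM in MZ and 1114 ± 55.9 CPM in wt (-0.09, SE 0.07, adjusted p = 0.481). histh1l2 had 842, 868 and 588 CPM in MZ and 621, 700 and 552 CPM in wt sphere embryos (0.28, SE 0.16, adjusted p = 0.288). histh1l1 had 82.3, 69.9 and 52.3 CPM in MZ and 62.1, 55.5 and 23.0 CPM in wt sphere embryos (0.53, SE 0.35, adjusted p = 0.351). On CPM both overlapped between genotypes, and replicate 3 was the lowest library of its group for both genes. On TPM the sphere groups did not overlap for either gene. histh1l2 had 1355 to 1816 TPM in MZ against 1155 to 1300 TPM in wt. histh1l1 had 55.0 to 78.2 TPM in MZ against 22.25 to 53.4 TPM in wt. Summed linker transcript was 2662 ± 147 TPM in MZ and 2219 ± 59.4 TPM in wt sphere embryos. On CPM the sums were 1755 ± 110 in MZ and 1704 ± 102 in wt sphere embryos. All genes moved on the TPM scale too. On log2(TPM + 1) their median log2 fold change, MZ over wt at the sphere stage, was 0.13. There limma called 625 genes higher and 296 lower.

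**Figure D3:**
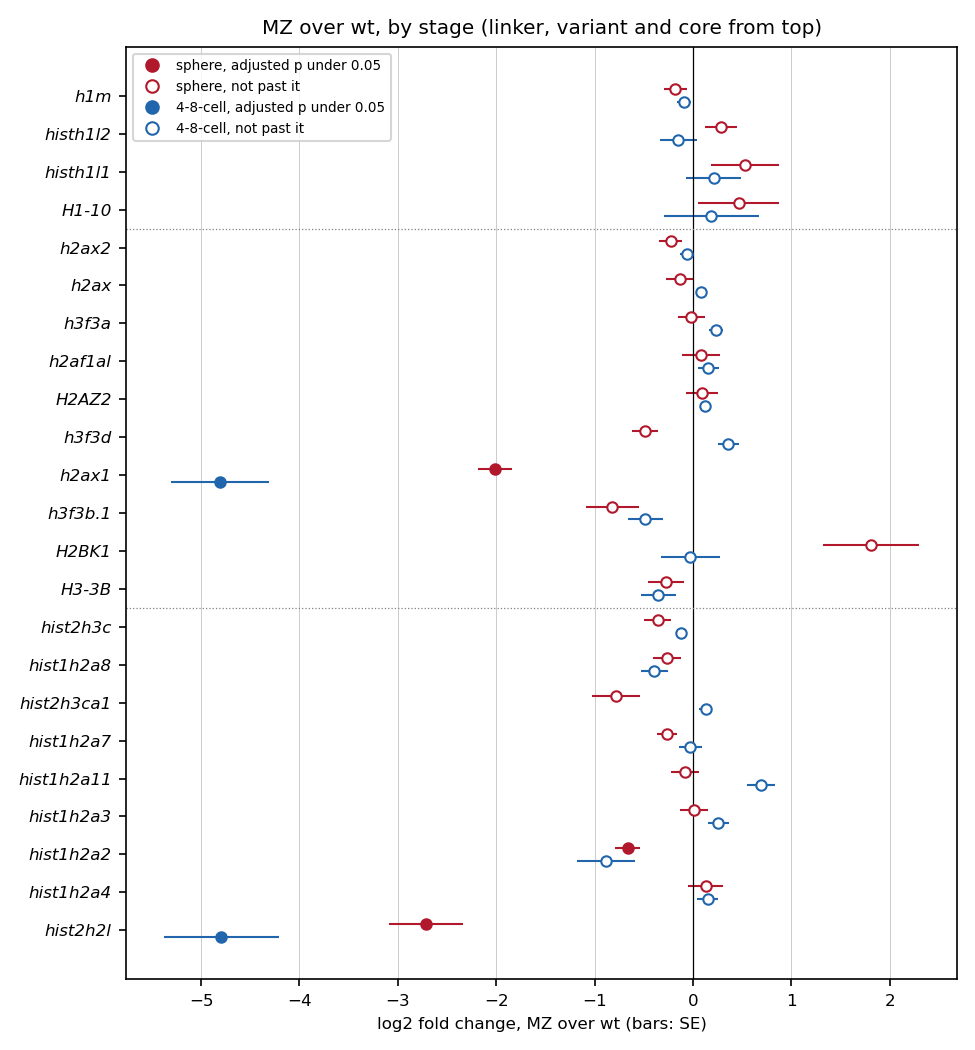
Log2 fold change, MZ over wt, of 23 histone genes at the sphere and the 4- to 8-cell stage (points, with SE as bars, edgeR), filled where the adjusted p is under 0.05. h2ax1 and hist2h2l stand at -2.01 and -2.72 at the sphere stage and at -4.81 and -4.79 at the 4- to 8-cell stage, whereas the other genes lie between -0.88 and 1.81.

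Whether the difference between MZ and wt itself changed with stage was tested as an interaction, in a fit to all 12 libraries, where a positive value means a difference that is more positive at the sphere stage. It was called for 2 of the 24 members, h2ax1 and h3f3d, against 1.97% of all genes tested. For h2ax1 the value was 2.80 (SE 0.52, adjusted p = 0.0296, edgeR), so that the deficit in MZ was 6.98-fold smaller at the sphere stage. For h3f3d it was -0.83 (SE 0.17, adjusted p = 0.0336), since its MZ libraries lay below wt at the sphere stage and above wt at the 4- to 8-cell stage. Both calls were narrow. That of h2ax1 was lost without wt sphere replicate 1 (2.82, adjusted p = 0.0550), MZ 4- to 8-cell replicate 1 or 2 (2.76 and 2.65, adjusted p = 0.0621 and 0.0631) or MZ sphere replicate 2 or 3 (2.71 and 2.94, adjusted p = 0.0764 and 0.0680). That of h3f3d was lost when any 1 of 9 libraries was left out, with values of -0.77 to -0.90, and on log2(TPM + 1) or log2(TPM + 0.1) in limma (-0.64 each, adjusted p = 0.0680 and 0.0782). For hist2h2l the interaction was 2.09 (SE 0.68, adjusted p = 0.121) and for hist2h3ca1 it was -0.91 (SE 0.29, adjusted p = 0.114), and neither passed in edgeR. DESeq2 called hist2h3ca1 as well (adjusted p = 0.0315), with hist1h2a11 (-0.77, adjusted p = 0.0201) and H2BK1 (1.84, adjusted p = 0.0312).

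The second question was how histone transcripts change as the embryo passes from maternal RNA to its own transcription. In MZ embryos 16 of the 24 members were higher and 2 were lower at the sphere than at the 4- to 8-cell stage, and in wt embryos the counts were also 16 higher and 2 lower. Over all genes tested, 39.5% were called in MZ (20.0% higher and 19.6% lower) and 48.3% in wt (24.7% higher and 23.6% lower). The median log2 fold change of the members was 1.02 in MZ and 1.22 in wt, against 0.00 and -0.01 for all genes. The balance of all genes depended on the scale. On TPM the median of all genes moved to -0.35 in MZ and -0.48 in wt, and without size factors it was -0.19 in wt. On log2(TPM + 1), 13 members were still higher and 3 lower in each genotype. Of all 16595 genes tested, that scale gave 1875 higher and 6761 lower in MZ, and 1804 higher and 8102 lower in wt.

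Of the 23 histone genes in the plot of stage changes, the linker genes histh1l2 and histh1l1 had the largest positive log2 fold changes, and the make-up of linker transcript turned over. histh1l2 had 842, 868 and 588 CPM in MZ sphere embryos, against 11.02, 16.2 and 13.0 CPM in MZ 4- to 8-cell embryos. In wt it had 621, 700 and 552 CPM at the sphere stage, against 15.6, 13.9 and 15.1 CPM at the 4- to 8-cell stage. Its level was 57.1-fold higher at the sphere stage in MZ (log2 fold change 5.84, SE 0.20, adjusted p = 3.07e-09, edgeR) and 42.0-fold higher in wt (5.39, SE 0.20, adjusted p = 3.90e-09). histh1l1 had 68.2 ± 15.1 CPM in MZ sphere and 2.32 ± 0.127 CPM in MZ 4- to 8-cell embryos (SD, n = 3 each), 29.2-fold higher (4.87, SE 0.36, adjusted p = 1.49e-06). In wt it had 46.9 ± 21.0 CPM at the sphere and 2.00 ± 0.217 CPM at the 4- to 8-cell stage, 23.3-fold higher (4.54, SE 0.35, adjusted p = 1.59e-06).

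h1m did not pass in either genotype on the CPM scale, with log2 fold changes of -0.19 in MZ (SE 0.10, adjusted p = 0.154, edgeR) and -0.11 in wt (SE 0.10, adjusted p = 0.383). On the TPM scale it averaged 951 in MZ sphere against 1450 in MZ 4- to 8-cell embryos, and 966 in wt sphere against 1586 in wt 4- to 8-cell embryos. The all-gene median on log2(TPM + 1) was lower too, by -0.35 in MZ and -0.48 in wt, and h1m was not tested against it. h1m made up 36.0 ± 6.83% of linker TPM in MZ sphere and 43.4 ± 5.36% in wt sphere embryos, against 97.1 ± 0.70% in MZ and 97.0 ± 0.252% in wt 4- to 8-cell embryos. histh1l2 made up 61.5 ± 6.51% in MZ sphere and 54.6 ± 5.02% in wt sphere embryos, against 2.63 ± 0.645% in MZ and 2.72 ± 0.216% in wt 4- to 8-cell embryos. The shares of the genotypes overlapped at both stages. Summed linker transcript was 1755 ± 110 CPM in MZ sphere against 1064 ± 79.1 CPM in MZ 4- to 8-cell embryos, and 1704 ± 102 CPM in wt sphere against 1132 ± 56.2 CPM in wt 4- to 8-cell embryos, ratios of 1.65 in MZ and 1.51 in wt.

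**Figure D4:**
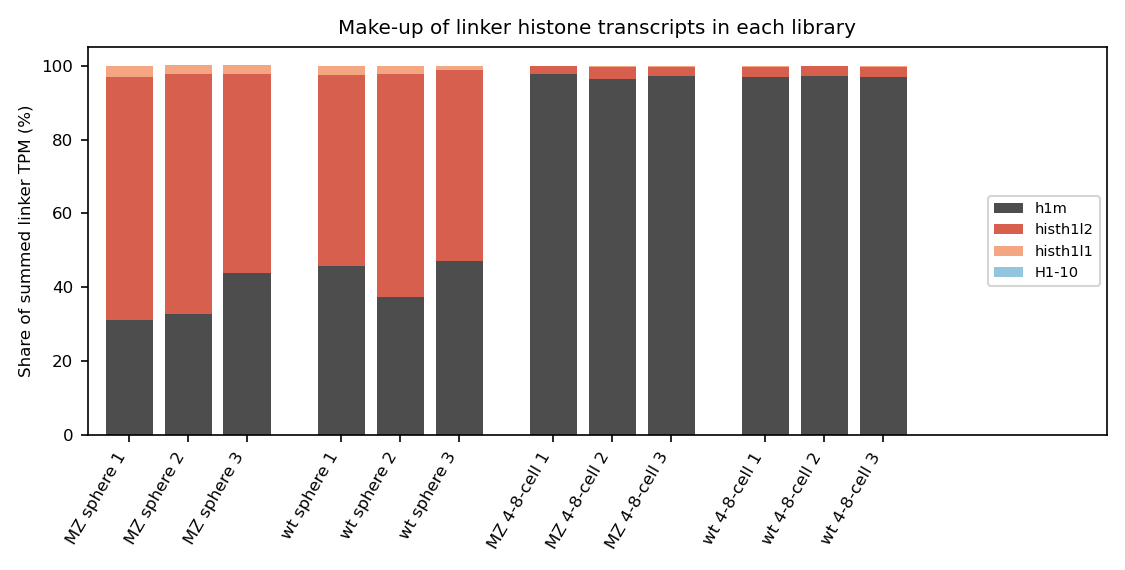
Share of summed linker histone TPM (%) held by h1m, histh1l2, histh1l1 and H1-10 in each library, with MZ sphere, wt sphere, MZ 4- to 8-cell and wt 4- to 8-cell libraries from left to right. h1m holds 31.3 to 47.2% in the 6 sphere libraries and 96.4 to 97.8% in the 6 libraries of the 4- to 8-cell stage.

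Of the 9 core genes, 7 were higher at the sphere stage in each genotype and none was lower. The shares over all genes tested were 20.0% higher and 19.6% lower in MZ, and 24.7% higher and 23.6% lower in wt. hist2h3c had 1084, 1167 and 887 CPM in MZ sphere against 323, 339 and 352 CPM in MZ 4- to 8-cell embryos (log2 fold change 1.63, SE 0.11, adjusted p = 6.89e-07, edgeR). In wt it had 1460, 1368 and 1168 CPM at the sphere against 370, 369 and 362 CPM at the 4- to 8-cell stage (1.86, SE 0.11, adjusted p = 2.03e-07). hist1h2a7 had 517 ± 50.5 CPM in MZ sphere against 188 ± 22.1 CPM in MZ 4- to 8-cell embryos, and 616 ± 30.7 CPM in wt sphere against 191 ± 24.4 CPM in wt 4- to 8-cell embryos (log2 fold change 1.46 in MZ and 1.69 in wt). The H2A genes hist1h2a3, hist1h2a4, hist1h2a8 and hist1h2a11 were also higher in both genotypes, with log2 fold changes of 0.85 to 1.25 in MZ and of 0.89 to 1.62 in wt. On log2(TPM + 1) the calls of hist1h2a11 in MZ (0.39) and of hist1h2a8 in wt (0.26) were lost. hist2h3ca1 was called in wt (1.43, SE 0.21) and not in MZ (0.52, SE 0.21, adjusted p = 0.0617), and hist2h2l in MZ (1.94, SE 0.54, adjusted p = 0.0133) and not in wt (-0.15, SE 0.43, adjusted p = 0.803). The genotype by stage interaction did not pass in edgeR for either gene, as given above, though DESeq2 called that of hist2h3ca1. The call of hist2h2l was lost without MZ 4- to 8-cell replicate 1 (1.60, adjusted p = 0.0528). hist1h2a2 did not pass in MZ (0.46, SE 0.25) or wt (0.23, SE 0.24).

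Summed core transcript was 3258 ± 448 CPM in MZ sphere against 1479 ± 51.1 CPM in MZ 4- to 8-cell embryos, and 4106 ± 533 CPM in wt sphere against 1505 ± 79.0 CPM in wt 4- to 8-cell embryos. The ratios were 2.202 in MZ and 2.73 in wt, and on TPM 1.65 in MZ and 1.75 in wt. Per length, hist2h3c was the highest core gene in all 4 groups, at 3720 TPM in MZ sphere, 4249 TPM in wt sphere, 1633 TPM in MZ 4- to 8-cell and 1817 TPM in wt 4- to 8-cell embryos.

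**Figure D5:**
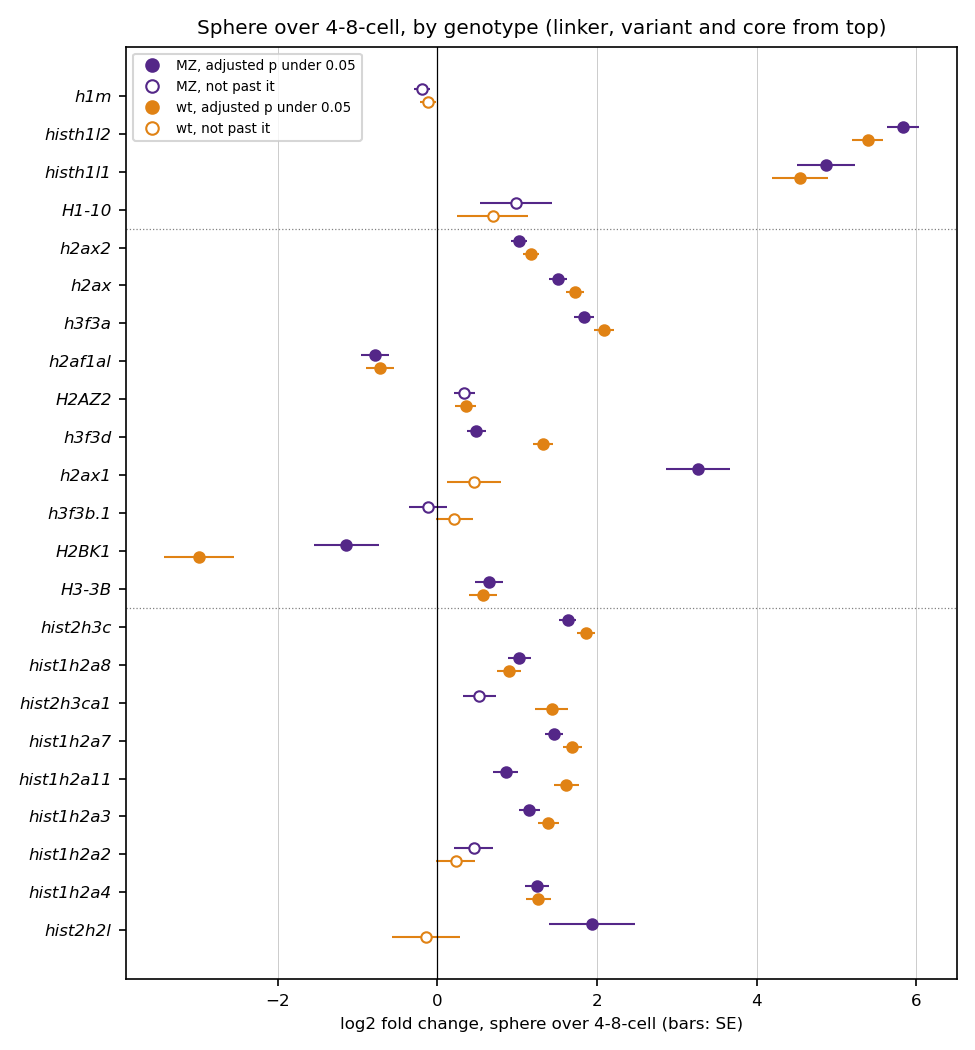
Log2 fold change, sphere over 4- to 8-cell stage, of 23 histone genes in MZ and wt embryos (points, with SE as bars, edgeR), filled where the adjusted p is under 0.05. histh1l2 and histh1l1 are the furthest right, the core genes lie right of 0 except hist2h2l in wt, and h2af1al and H2BK1 lie left of 0 in both genotypes.

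Variant genes went both ways, with 6 higher and 2 lower in each genotype. Of all genes tested, 20.0% were higher and 19.6% lower in MZ, and 24.7% higher and 23.6% lower in wt. h3f3a had 962, 1017 and 849 CPM in MZ sphere against 275, 258 and 257 CPM in MZ 4- to 8-cell embryos, and 807, 1135 and 897 CPM in wt sphere against 232, 202 and 236 CPM in wt 4- to 8-cell embryos. The log2 fold change was 1.84 in MZ (SE 0.13, adjusted p = 7.65e-07, edgeR) and 2.08 in wt (SE 0.13, adjusted p = 2.35e-07). Within H3.3 its share of TPM was 90.9 ± 0.265% in MZ sphere and 87.6 ± 1.88% in wt sphere embryos, against 79.2 ± 1.78% in MZ and 78.2 ± 2.02% in wt 4- to 8-cell embryos. h3f3d was higher at the sphere stage by 0.49 in MZ (SE 0.12, adjusted p = 0.00728) and by 1.32 in wt (SE 0.12, adjusted p = 5.04e-06), the difference tested above, and its call in MZ was lost on log2(TPM + 1), with 0.062. h2ax was higher by 1.51 in MZ and 1.72 in wt, and h2ax2 by 1.02 in MZ and 1.18 in wt (SE 0.10 to 0.11).

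h2ax1 was 9.60-fold higher at the sphere stage in MZ (log2 fold change 3.26, SE 0.40, adjusted p = 7.10e-05, edgeR), with 28.6 ± 5.37 CPM against 2.98 ± 0.811 CPM at the 4- to 8-cell stage. In wt it did not pass, with 114 ± 15.6 CPM at the sphere against 83.1 ± 50.7 CPM at the 4- to 8-cell stage (0.46, SE 0.34, adjusted p = 0.287). The variants that were lower at the sphere stage were h2af1al and H2BK1. h2af1al had 195, 260 and 323 CPM in MZ sphere against 493, 398 and 452 CPM in MZ 4- to 8-cell embryos (-0.79, SE 0.18, adjusted p = 0.00398), and 258, 201 and 271 CPM in wt sphere against 438, 413 and 349 CPM in wt 4- to 8-cell embryos (-0.72, SE 0.18, adjusted p = 0.00502). H2BK1 had 4.03 ± 1.53 CPM in MZ sphere against 8.99 ± 2.80 CPM in MZ 4- to 8-cell embryos (-1.14, SE 0.40, adjusted p = 0.0418), and 1.15 ± 0.504 CPM in wt sphere against 9.12 ± 2.48 CPM in wt 4- to 8-cell embryos (-2.99, SE 0.44, adjusted p = 1.51e-04).

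Some of the weaker stage calls turned on single libraries. In MZ the call of H2BK1 was lost without 4- to 8-cell replicate 1 (-0.86, adjusted p = 0.153) or 3 (-1.23, adjusted p = 0.0602), or without sphere replicate 1 (-0.88, adjusted p = 0.124) or 2 (-1.24, adjusted p = 0.0833). In wt the call of H2AZ2 (0.35, SE 0.13, adjusted p = 0.0433) was lost without any 4- to 8-cell library (0.33 to 0.37) and without sphere replicate 2 or 3 (0.28 and 0.27). The call of H3-3B in wt (0.57, SE 0.17, adjusted p = 0.0179) was lost without 4- to 8-cell replicate 1 (0.46, adjusted p = 0.0707) or sphere replicate 2 (0.46, adjusted p = 0.0660). In wt both genes had negative values on TPM, -0.28 for H2AZ2 and -0.04 for H3-3B. Summed variant transcript was 3379 ± 224 CPM in MZ sphere against 1798 ± 64.6 CPM in MZ 4- to 8-cell embryos, and 3666 ± 413 CPM in wt sphere against 1751 ± 103 CPM in wt 4- to 8-cell embryos, ratios of 1.88 in MZ and 2.09 in wt.

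The genes that make, trim and carry histones were followed from fixed lists. Of 17 genes for the transcription and 3′ processing of histone mRNA, 2 were higher and 3 were lower in MZ than in wt sphere embryos (5 higher and 5 lower at an unadjusted p under 0.05, 3 higher and 5 lower by DESeq2), where 7.78% of all genes were called, and 0 were called at the 4- to 8-cell stage (an unadjusted p under 0.05 for 1 higher and 3 lower in edgeR, and 0 higher and 3 lower called by DESeq2). LSM11, a part of the U7 particle that cuts histone pre-mRNA, was higher in MZ sphere embryos (log2 fold change 0.84, SE 0.14, adjusted p = 0.0175, edgeR), as was npat, an activator of histone gene transcription (0.45, SE 0.11, adjusted p = 0.0475). The cleavage factor genes CPSF2 (-0.56, SE 0.13) and CLP1 (-0.68, SE 0.15) and the cap-binding partner gene SRRT (-0.88, SE 0.15) were lower. The stem-loop binding protein genes slbp and slbp2 did not pass between genotypes, with values of 0.12 (SE 0.14) and 0.54 (SE 0.20) at the sphere stage. Between stages slbp2, whose counterpart in the frog stores histone mRNA in the oocyte, was lower at the sphere stage in wt (-2.10, SE 0.18), as were casp8ap2 (-1.32), which also acts in 3′ processing, LSM11 (-1.15) and LSM1 (-1.69), which acts in mRNA decay. In all, 3 of the 17 were higher and 6 lower at the sphere stage in MZ, and 5 higher and 8 lower in wt, where 39.5% (MZ) and 48.3% (wt) of all genes were called.

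Of 33 tested identifiers for histone chaperones and importers, 1 was higher and 0 lower in MZ sphere embryos, and 0 were higher and 1 lower in MZ 4- to 8-cell embryos. At an unadjusted p under 0.05 these counts were 5 higher and 5 lower, and 7 higher and 2 lower, and by DESeq2 4 higher and 2 lower at each stage. Over all genes edgeR called 7.78% at the sphere and 3.02% at the 4- to 8-cell stage. hirip3, a partner of HIRA, was higher at the sphere stage (1.02, SE 0.25, adjusted p = 0.0499, edgeR), and HIRA, which places H3.3, was lower at the 4- to 8-cell stage (-0.34, SE 0.06, adjusted p = 0.0362). At the other stage neither passed in edgeR. hirip3 was at 0.32 (adjusted p = 0.145) at 4 to 8 cells and HIRA at 0.22 (adjusted p = 0.295) at the sphere stage. Between stages 9 were higher and 11 lower at the sphere stage in MZ, and 15 higher and 12 lower in wt. Of all genes tested, 39.5% were called in MZ and 48.3% in wt. The 4 chaperone identifiers with the smallest adjusted p in wt, namely RBBP4 (-1.59), NASP (-1.42) and both with the symbol ASF1B (-1.68 and -2.31), were lower. Among those higher in wt sphere embryos were ANP32E (1.32), a chaperone of H2A.Z, and both identifiers with the symbol SET (1.02 and 0.87). Of 19 identifiers for S-phase genes, 0 were higher and 2 lower in MZ sphere embryos, where 7.78% of all genes were called. At an unadjusted p under 0.05 they were 2 higher and 4 lower, and DESeq2 called 1 higher and 3 lower. The 2 edgeR calls were the replicative helicase genes MCM4 (-0.37, SE 0.09) and 1 of the 2 identifiers with the symbol MCM6 (-0.58, SE 0.10). Of the other helicase genes, DESeq2 also called MCM7 lower (-0.70, SE 0.17, in edgeR) and MCM2 higher (0.48, SE 0.16, in edgeR). At the 4- to 8-cell stage 0 of 18 were called (an unadjusted p under 0.05 for 2 higher and 3 lower in edgeR, and 1 higher and 2 lower called by DESeq2). Between stages 8 were higher and 2 lower at the sphere stage in MZ, and 10 higher and 2 lower in wt, where 39.5% (MZ) and 48.3% (wt) of all genes were called. Those higher in wt included the other MCM6 identifier (7.44) and the cyclin genes CCNE2 (4.59), CCNE1 (0.82) and CCNA2 (0.72).

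The macroH2A genes carry histone symbols outside the rule and were added after the tables had been seen. MACROH2A2, an H2A variant with a large extra domain, was higher at the sphere stage in MZ (1.46, SE 0.34, adjusted p = 0.00485, edgeR) and in wt (1.03, SE 0.32, adjusted p = 0.0195). Between genotypes neither MACROH2A1 nor MACROH2A2 passed by edgeR, and MACROH2A2 had an unadjusted p under 0.05 and a DESeq2 call as lower in MZ at both stages (-0.92, SE 0.29, at the sphere and -1.34, SE 0.37, at the 4- to 8-cell stage).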

How the data were processed

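Poly-A RNA from 3 biological samples per group was sequenced from both ends, aligned to build danRer10 and annotated with Ensembl genes by the authors, and Bowtie and RSEM, with versions not given in the sources used here, appear in the submitters' processing notes. The deposited expected counts are RSEM estimates, which split reads that match several genes. The TPM values were computed by the authors from those counts and the gene lengths and were used as deposited. The labels do not say whether the samples of a group came from separate clutches. The p-values thus weigh differences between groups against the spread between these samples, which may not be that between clutches.

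Counts were rounded, 1 ribosomal RNA gene was removed, and genes with a mean TMM-normalised count above 10 were kept. Libraries held 7829742 to 23681822 counts, so levels under about 1 CPM rest on few reads. Genotypes were compared at each stage on 6 libraries in edgeR 4.0.16 under R 4.3.3 (glmQLFit and glmQLFTest, its quasi-likelihood test) with Benjamini-Hochberg adjustment over all genes. Stages and the interaction came from 1 fit to 12 libraries. SE values follow from the F statistic, and values after ± are SDs over 3 libraries. Alternatives were other or no size factors, other filters, DESeq2 1.42.0, limma 3.58.1 on log2(TPM + 1) and log2(TPM + 0.1), all 12 libraries, the replicate block and leaving out each library. The code was tested on simulated counts.

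Symbols were looked up in a gene name table and in RefSeq (GRCz12tu), which served only for names and gene order. Those in capitals do not say which zebrafish copy is meant. Types follow the symbols, so that hist1h2a11 counts as core. Members and lists were chosen with earlier results of these data known. Named were the members called between genotypes or in the interaction, the 3 highest by TPM of each type, the largest stage changes of each type, and list genes called between genotypes or up to 4 per list between stages. The values of 1 member are not reported here, though the counts and sums hold it. The other members, slbp and zpr1 with its neighbours were named after their values were seen. Of the lists, 17 of 21 processing genes, 33 of 36 chaperone and importer genes, 17 of 17 S-phase genes, 17 of 17 zygotic blastula, 10 of 10 maternal egg, 8 of 8 ovarian follicle, 6 of 8 blood, 8 of 8 liver and 4 of 7 testis markers were matched. cenpa was not matched. Of 4 histones under other symbols, added later, 2 matched.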

Additional observations from a re-analysis of the deposited data

Results flagged for a closer look

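The results for 2 genes differed between stages by a test of the difference itself, the genotype by stage interaction (edgeR quasi-likelihood, all 12 libraries). For h2ax1 the interaction was 2.80 on the log2 scale (SE 0.52, adjusted p = 0.0296). Its MZ over wt log2 fold change was -2.01 at the sphere stage and -4.81 at the 4- to 8-cell stage, with all 3 MZ libraries lower than every wt library at both. For h3f3d the interaction was -0.83 (SE 0.17, adjusted p = 0.0336), and its MZ over wt values were -0.48 at the sphere stage and 0.36 at the 4- to 8-cell stage, with groups that did not overlap at either. The call of h2ax1 was lost when any 1 of 5 libraries was left out, and that of h3f3d when any 1 of 9 was left out and on log2(TPM + 1) or log2(TPM + 0.1) in limma (-0.64 each, adjusted p = 0.0680 and 0.0782). No explanation was tested for either gene.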

How the results depend on the processing

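Counts of members called between genotypes depended on the test. No share over all genes was computed for DESeq2, the genotype fits to all 12 libraries, the replicate block or the left-out libraries. Their counts are thus not read as a result about histone genes. At the sphere stage 3 were called by edgeR, 7 by DESeq2 (1 higher, 6 lower), 7 in the fit to all 12 libraries and 5 with the replicate block, and at the 4- to 8-cell stage 2 were called by edgeR, 5 by DESeq2 (2 higher, 3 lower) and 1 with the block. For the interaction 2 were called by edgeR, 5 by DESeq2 and 1 by limma on log2(TPM + 1) and on log2(TPM + 0.1). Leaving out 1 library gave 1 to 4 calls at the sphere stage, 1 to 3 at the 4- to 8-cell stage and 0 to 4 for the interaction (0 without wt sphere replicate 1, MZ 4- to 8-cell replicate 2 or MZ sphere replicate 2 or 3, and 4 without wt sphere replicate 3). Stage counts stayed at 16 to 20 under every alternative run, with 16 in each genotype on TPM.

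Ratios of summed transcript, sphere over 4- to 8-cell, were smaller on TPM for core (1.65 in MZ and 1.75 in wt) and variant genes (1.39 in MZ and 1.35 in wt). For linker genes the TPM ratio was larger in MZ (1.78) and smaller in wt (1.36, and 1.33 without size factors). The linker ratio of MZ over wt at the sphere stage was 1.20 on TPM. For that comparison the median log2 fold change of all genes was 0.13 on log2(TPM + 1), with 625 called higher and 296 lower in limma. Core genes at that stage summed to 10370 ± 920 TPM in MZ and 11540 ± 635 TPM in wt. The core sum was thus lower in MZ on TPM as on CPM, and the libraries overlapped on both scales. The variant sums on TPM at that stage are given above, and for variant genes the order of MZ and wt was reversed. In wt, 2 stage values changed sign on TPM, H2AZ2 at -0.28 with either pseudocount and H3-3B at -0.036 and -0.037. The calls of H2AZ2 in wt were also lost without size factors or without a filter, as were those of H3-3B. The split of all genes moved too, since without size factors 747 were higher and 451 lower in MZ sphere embryos (605 and 664 with them), and 3108 higher and 4992 lower between stages in wt (4105 and 3914).

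Whether the replicate numbers pair the libraries was not settled. The deviations of same-numbered MZ and wt libraries correlated at -0.0046 to 0.251 at the sphere and 0.0286 to 0.0712 at the 4- to 8-cell stage. Of 6 libraries at each stage, 3 at the sphere and 5 at the 4- to 8-cell stage correlated best with their own number. The main fits took the libraries as unpaired, and the counts of calls with the replicate block are given above. Depth limits H1-10 in every group, where 65 to 81 counts were found. It also limits hist2h2l, with 20 counts in MZ 4- to 8-cell and 48 in MZ sphere embryos, and H2BK1, with 54 in wt sphere embryos.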
